A study of Mus musculus with 2 samples.

Results

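The muscle energy isozymes are 8 genes chosen by name and matched by Ensembl identifier, of 43346 annotated genes in the tables: Ckm, Ckb, Ckmt2, Pygm, Pfkm, Eno3, Pgam2 and Mb. They were measured in total RNA from the limbs of B6NCrl mouse embryos at embryonic day 14.5, in 2 libraries of 1 group, called replicates 1 and 2 here as in the labels. The starting material was 10 ng of RNA above 200 nt, to which synthetic spike-ins were added, taken from the 4 limbs of a pup according to the labels, which also describe the sex as pooled male and female. Donor, pup and pregnancy are the same for both in the labels and the collection days differ, so the spread between them may include technical and biological parts that cannot be told apart. No treatment, genotype or stage was compared, and whole limbs hold many cell types, so fewer muscle cells and less RNA per muscle cell cannot be told apart in any difference between the libraries.

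Contracting muscle renews ATP from a store of phosphocreatine, by breaking down glycogen and by glycolysis, and many enzymes of these routes exist as a form enriched in skeletal muscle and as forms used in other tissues. Creatine kinase is the best known case: the cytosolic enzyme is a dimer of M subunits (Ckm), B subunits (Ckb) or both. Developing muscle is known to change from the B to the M subunit as it matures. Ckmt2 encodes the mitochondrial creatine kinase of striated muscle, Pygm the muscle glycogen phosphorylase that releases glucose units from glycogen, Pfkm the muscle subunit of phosphofructokinase, Eno3 the muscle enolase, Pgam2 the muscle phosphoglycerate mutase, and Mb the oxygen-binding protein myoglobin. All but Ckb are therefore muscle forms, and Ckb is the form to which Ckm is compared.

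The 8 genes lie at separate loci (coordinates on GRCm38, the assembly that mm10 names, from GENCODE M21). Ckm is on chromosome 7 (19404776 to 19422841, plus strand), Ckb on chromosome 12 (111669361 to 111672338, minus strand), Ckmt2 on chromosome 13 (91853387 to 91876885, minus strand) and Pygm on chromosome 19 (6384399 to 6398459, plus strand). Pfkm (98092589 to 98132451, plus strand) and Mb (77015487 to 77050670, minus strand) are both on chromosome 15, and Eno3 (70657202 to 70662513, plus strand) and Pgam2 (5801640 to 5803733, minus strand) are both on chromosome 11. The protein-coding gene Senp1 overlaps the 5-prime end of Pfkm on the opposite strand, at 24.8 and 26.2 TPM in replicates 1 and 2 (TPM is the length-corrected transcript level in the tables, scaled to the same sum in each library). Use of strand in the counting is not stated in any label or header, so the part of Senp1 reads in the Pfkm values was not tested. The antisense gene A930016O22Rik, which overlaps Ckm, was at 0.2 and 0.1 TPM.

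The windows around the starts of 4 of these genes are shown because they carry the sequence by which Ckm and the pair of Pfkm starts can be set beside Ckb. Each runs from 250 bases before to 50 bases after a RefSeq start (GRCm38.p6), 5-prime to 3-prime on the strand of the gene. Capitals mark CAGCTG, a form of the E-box (CANNTG) that myogenic regulators of the MyoD family are known to bind, and TATAAA, a form of the TATA box. The windows are those of Ckm (chr7:19410844-19411143, plus strand), Ckb (chr12:111672289-111672588, minus strand), Pygm (chr19:6384158-6384457, plus strand) and the upstream and downstream starts of Pfkm (chr15:98092339-98092638 and chr15:98108221-98108520, plus strand).
Ckm: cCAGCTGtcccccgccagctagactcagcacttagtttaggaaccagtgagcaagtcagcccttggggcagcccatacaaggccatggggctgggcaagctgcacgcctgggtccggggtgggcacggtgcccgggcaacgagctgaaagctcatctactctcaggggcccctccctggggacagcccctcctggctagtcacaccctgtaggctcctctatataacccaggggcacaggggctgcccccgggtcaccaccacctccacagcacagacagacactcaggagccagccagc
Ckb: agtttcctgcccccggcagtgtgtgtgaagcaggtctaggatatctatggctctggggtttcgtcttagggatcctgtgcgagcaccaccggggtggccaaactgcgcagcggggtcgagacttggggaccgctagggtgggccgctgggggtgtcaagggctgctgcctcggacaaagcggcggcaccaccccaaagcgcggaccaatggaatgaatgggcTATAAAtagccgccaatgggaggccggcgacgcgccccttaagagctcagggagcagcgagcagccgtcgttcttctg
Pygm: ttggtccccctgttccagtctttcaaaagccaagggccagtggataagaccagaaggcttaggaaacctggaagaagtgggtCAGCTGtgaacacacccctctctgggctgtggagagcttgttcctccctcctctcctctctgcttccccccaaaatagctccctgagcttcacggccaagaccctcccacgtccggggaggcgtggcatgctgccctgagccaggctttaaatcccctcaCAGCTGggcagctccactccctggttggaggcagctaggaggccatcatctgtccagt
Pfkm upstream start: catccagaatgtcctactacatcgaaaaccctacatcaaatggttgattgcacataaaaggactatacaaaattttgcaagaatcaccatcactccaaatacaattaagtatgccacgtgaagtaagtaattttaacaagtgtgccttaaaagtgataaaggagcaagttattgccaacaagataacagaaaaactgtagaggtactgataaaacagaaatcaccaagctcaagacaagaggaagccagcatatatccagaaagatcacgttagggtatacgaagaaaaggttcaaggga
Pfkm downstream start: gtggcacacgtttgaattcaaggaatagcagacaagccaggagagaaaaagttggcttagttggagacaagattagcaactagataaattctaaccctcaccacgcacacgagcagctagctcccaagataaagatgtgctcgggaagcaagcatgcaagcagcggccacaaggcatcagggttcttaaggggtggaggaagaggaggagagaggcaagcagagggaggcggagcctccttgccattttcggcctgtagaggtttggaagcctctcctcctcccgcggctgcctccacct

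All 8 genes had an entry, with 13 windows in all, since Mb and Pfkm have several starts. CAGCTG, which reads the same on both strands, was present in 7 of the 13 windows, against 16.3% of the 32817 RefSeq windows of the same length. These 7 belong to 6 genes, Ckm, Ckmt2, Pygm, Eno3, Pgam2 and Mb. The Mb windows that hold CAGCTG overlap and share a single site, 193 and 133 bases before their starts, so this site is counted in both. None of the 4 Pfkm windows and not the Ckb window held CAGCTG. In the Ckm window it begins 249 bases before the start, and Pygm has 2 copies, 168 and 8 bases before it. The Ckb window holds TATAAA 28 bases before the start (13.6% of all windows hold it on either strand) and, overlapping it, a match to the MEF2 site, which also occurs in the Pgam2 window 80 bases before the start and in 3.19% of all windows. Only the exact letters TATAAA were searched for and marked. The Ckm window holds the similar letters tatataa, which are not marked, so the windows do not show that it lacks a TATA box. The wider motif CANNTG, which includes CAGCTG, occurs in 72.3% of windows, and the CArG box, found in 1.63%, in none of the 13. CAGCTG was singled out after its matches in these windows were seen, and a match is a description of the letters only.

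The level of the 8 genes spanned from under 1 to about 78 TPM, and the B form of creatine kinase was the highest. Ckb stood at 77.7 and 70.6 TPM in replicates 1 and 2, with 2462 and 2088 expected counts (estimated reads that need not be whole). Pgam2 followed at 67.9 and 49.5 TPM and Eno3 at 68.9 and 46.0 TPM, so that the ranges of these muscle forms of glycolysis overlapped. Ckb lay above both in each library, and the range of its 2 values did not overlap that of either. The authors' deposited intervals for the level of Ckb and Eno3 did overlap in replicate 1, at 72.7 to 78.7 and 65.2 to 73.6 TPM, so their order there was not resolved.

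**Figure D1:**
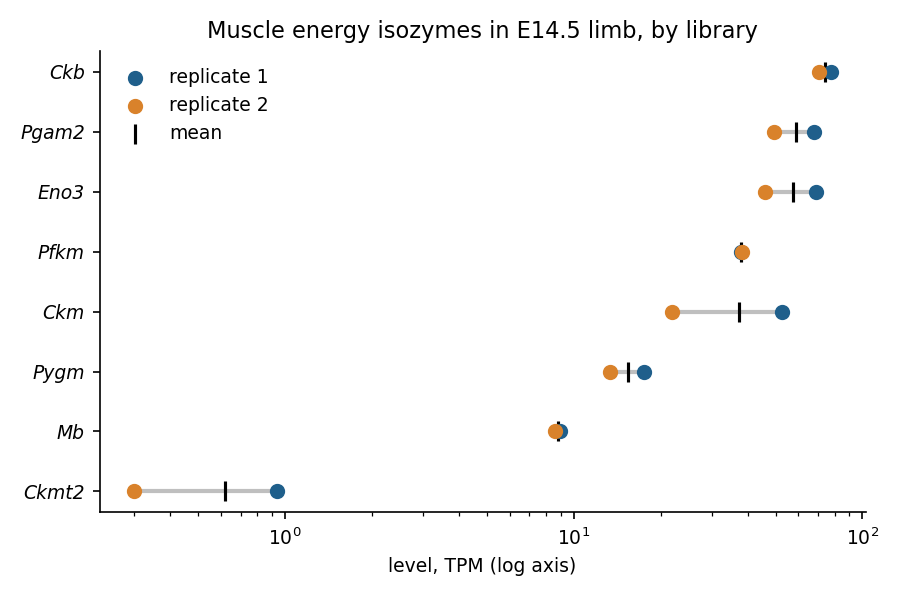
Level of the 8 genes in TPM (log axis) in each library, with points for replicates 1 and 2, a vertical mark for their mean and a grey line joining them. Ckb is highest in both libraries, Ckmt2 lies under 1 TPM in both, and the points of Ckm and Ckmt2 are the farthest apart.

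Pfkm stood at 38.0 and 38.1 TPM and was the closest pair of values among the 8. Ckm stood at 52.6 TPM in the first library and 21.9 TPM in the second, so its range included that of Pfkm, and the order of these 2 genes differed between the libraries. Pygm was lower, at 17.5 and 13.3 TPM, and below every value of the 5 genes named so far. Mb stood at 8.95 and 8.61 TPM. Ckmt2 was the lowest, at 0.940 and 0.300 TPM from 30 and 9 counts, and it alone of the 8 did not reach 1 TPM in both libraries.

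As means, these were 74.1 ± 5.02 TPM for Ckb (SD, n = 2 here and below), 58.7 ± 13.0 for Pgam2, 57.4 ± 16.2 for Eno3, 38.0 ± 0.0707 for Pfkm, 37.3 ± 21.8 for Ckm, 15.4 ± 2.96 for Pygm, 8.78 ± 0.240 for Mb and 0.620 ± 0.453 for Ckmt2. Among all annotated genes by mean TPM, Ckb ranked 2067, Pfkm 4032, Ckm 4100 and Mb 9643. The authors' deposited intervals for the level, whose confidence level no label or header states, did not overlap between the libraries for Ckm (48.9 to 53.9 and 19.6 to 23.0 TPM), Pgam2 (62.5 to 70.2 and 44.9 to 51.6 TPM), Eno3 (65.2 to 73.6 and 43.9 to 51.4 TPM), Ckb (72.7 to 78.7 and 65.8 to 71.7 TPM) or Ckmt2 (0.633 to 1.29 and 0.139 to 0.532 TPM). They did overlap for Pfkm, Pygm and Mb. With 2 libraries of 1 group, no likeness of pattern over samples could be measured, so no other genes are named for resembling these.

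In creatine kinase the B subunit gene exceeded the M subunit gene in both libraries, by unequal amounts. Ckb was 1.47-fold higher than Ckm in replicate 1 and 3.22-fold higher in replicate 2. On the log2 scale with 0.1 TPM added to each value, the ratio of Ckm over Ckb was −0.56 and −1.69, with a mean of −1.12 ± 0.80. Ckm held 40.4% of the summed TPM of both genes in replicate 1 and 23.7% in replicate 2. That sum was 130.3 TPM and 92.4 TPM. The smallest p that sign flips of 2 libraries allow by an exact test is 0.5, and for that reason the 6 ratios of this kind carry no test.

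Ckm and Ckb shared only short runs in the GENCODE M21 sequences compared. The Ckm sequence was 1235 bases, where the Ckm transcript counted was 1415 nt, so part of the latter was not compared. The leading transcripts of both genes aligned over 972 bases with 77.4% identity. The longest run without a difference was 20 bases, shown here because it is the longest identical stretch in these sequences.
Ckm and Ckb shared run: GGCACAGGTGGCGTGGACAC
It lies at bases 852 to 871 of the Ckm transcript and 1085 to 1104 of the Ckb transcript in the GENCODE M21 sequences. The expected counts of both genes were nonetheless not whole, at 1592.76 and 617.56 for Ckm in replicates 1 and 2 and 2462.21 and 2088.44 for Ckb, whereas those of the other 6 were whole to 2 decimals. Their sum was whole in replicate 2, at 2706, and not in replicate 1, at 4054.97. The longest run shared by Pygm with Pygb was 62 bases, and by Ckmt2 with Ckmt1 39 bases. For the other muscle forms the longest run shared with any other form compared was 20 to 28 bases.

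The muscle form was also the lower of the mitochondrial creatine kinases in both libraries. Ckmt1, the form found in most tissues, stood at 15.6 and 9.27 TPM, against under 1 TPM for Ckmt2, and the log2 ratio of Ckmt2 over Ckmt1 was −3.92 and −4.55 (mean −4.23 ± 0.45). Ckmt2 held 5.69% and 3.13% of their summed TPM. The mean was −3.04 with 1 TPM added in place of 0.1.

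In glycogen breakdown and glycolysis the muscle form was also below the sum of the other forms of its enzyme in each library. Glycogen phosphorylase was mainly the brain form Pygb, at 50.2 and 60.8 TPM, with the liver form Pygl at 17.8 and 16.7 TPM. The log2 ratio of Pygm over their sum was −2.24 ± 0.41, and Pygm held 20.5% and 14.7% of the family. The Pygm and Pygl ranges lay close together, at 13.3 to 17.5 and 16.7 to 17.8 TPM, and overlapped. The Pygm values include a short transcript typed as a retained intron, at 4.35 and 3.15 TPM, as described below. The full-length Pygm transcript alone, at 12.6 and 9.96 TPM, lay below both gene-level values of Pygl.

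Phosphofructokinase had the steadiest makeup. The liver form Pfkl stood at 77.8 and 81.1 TPM and the platelet form Pfkp at 9.32 and 9.08 TPM. The log2 ratio of Pfkm over their sum was −1.19 and −1.24 (mean −1.22 ± 0.03), and Pfkm held 30.4% and 29.7% of the family. Its place between a higher Pfkl and a lower Pfkp was the same in both libraries.

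Enolase and phosphoglycerate mutase were mostly the widely expressed forms. Eno1 stood at 1005 and 997 TPM and the neuronal form Eno2 at 4.62 and 7.73 TPM. Eno3 had a log2 ratio of −4.16 ± 0.41 to their sum and held 6.38% and 4.38% of enolase TPM. Eno3 was above Eno2 and below Eno1 in each library. Pgam1 stood at 416 and 402 TPM, the log2 ratio of Pgam2 over Pgam1 was −2.81 ± 0.29, and Pgam2 held 14.0% and 11.0%. The counts of Eno1 and Pgam1 were not whole, so some of their reads were divided with other features, and their levels are uncertain to that extent.

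**Figure D2:**
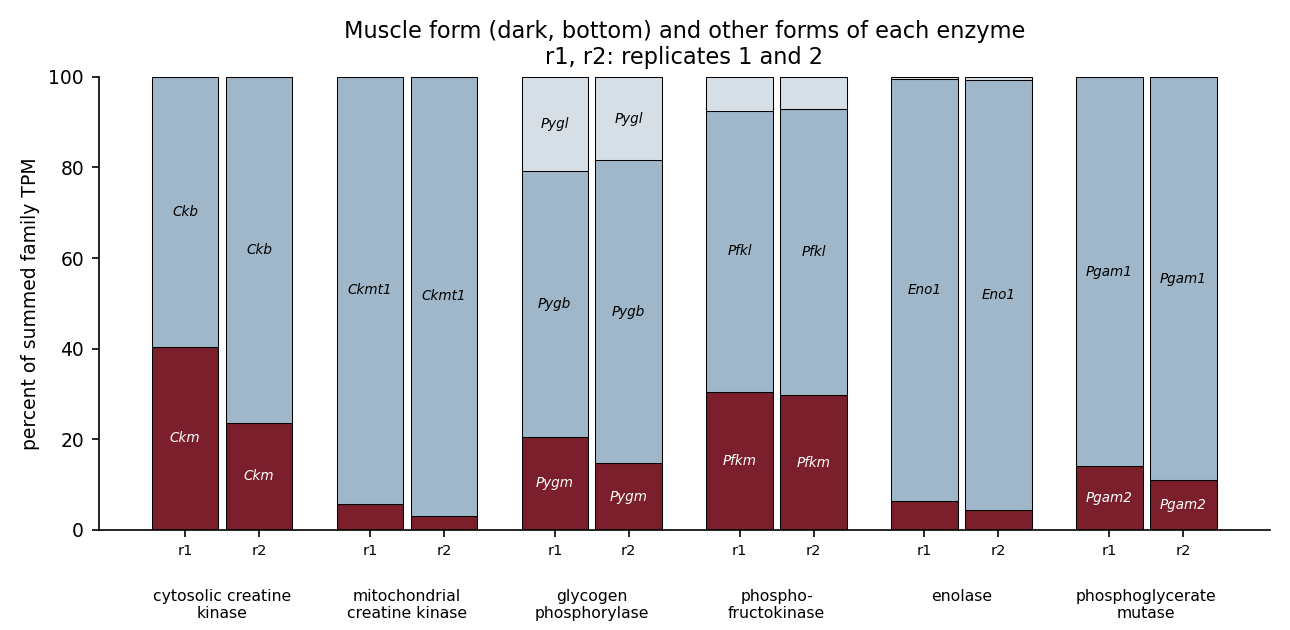
Percent of the summed TPM of each enzyme family held by the muscle form (dark, bottom) and by the other forms, in replicates 1 and 2. The dark share is below 41% in every family, and Ckm drops from 40.4% to 23.7% between the libraries while Pfkm stays at 30.4% and 29.7%.

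Among the 8 genes, Ckm and Ckmt2 had the largest differences between the libraries. Counts were scaled by TMM library sizes and compared per gene by a two-sided exact binomial test with Benjamini-Hochberg adjustment over the 19153 genes with 10 or more summed counts. That test covers counting error only, has 1 library on each side, and compares these libraries and no conditions. In replicate 2 this test called 6 of the 8 lower and 0 higher, where 14.8% of all genes tested were called lower, 12.7% higher and 27.5% in either direction. These shares are not matched for depth, here or for the lists below, and genes with many counts are called at small ratios. Eno1, for example, was called lower at a log2 count ratio of −0.07 on 42381 and 39742 counts. Of all calls 53.8% were lower, a share that was 40.1% with total counts and 31.0% with spike-in counts as the scaling, while the same 6 of the 8 genes were called lower under each of these and under DESeq2 size factors. The median log2 count ratio over all genes tested stayed within 0.06 of 0 under every scaling.

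Ckm had a log2 count ratio of −1.34 (95% exact interval −1.48 to −1.21, adjusted p = 4.03e-93 by the exact binomial test). Its level was 2.40-fold higher in replicate 1. Among 9213 genes whose mean reached 10 TPM, 8 had a lower log2 TPM ratio than Ckm, and none of the 21 listed contractile genes did. Ckmt2 had a log2 count ratio of −1.66 with an interval of −2.98 to −0.60 (adjusted p = 0.00627 by the same exact test), wide because it rests on 39 counts in the sum.

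The muscle forms of glycolysis and glycogen breakdown, other than Pfkm, were lower in replicate 2 by less. The log2 count ratio was −0.62 for Eno3 (interval −0.72 to −0.52), −0.53 for Pgam2 (−0.67 to −0.40) and −0.45 for Pygm (−0.60 to −0.30), with adjusted p = 9.27e-33, 2.73e-14 and 3.70e-08 by the exact binomial test. Ckb was lower by a small amount, with a ratio of −0.22 (−0.30 to −0.13, adjusted p = 6.29e-06 by the exact test). Pfkm, at −0.08 (−0.16 to 0.01, adjusted p = 0.175), and Mb, at −0.15 (−0.46 to 0.17, adjusted p = 0.552), were not called by the exact test. The interval of Mb, from 183 and 163 counts, includes a ratio as low as that of Pygm.

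**Figure D3:**
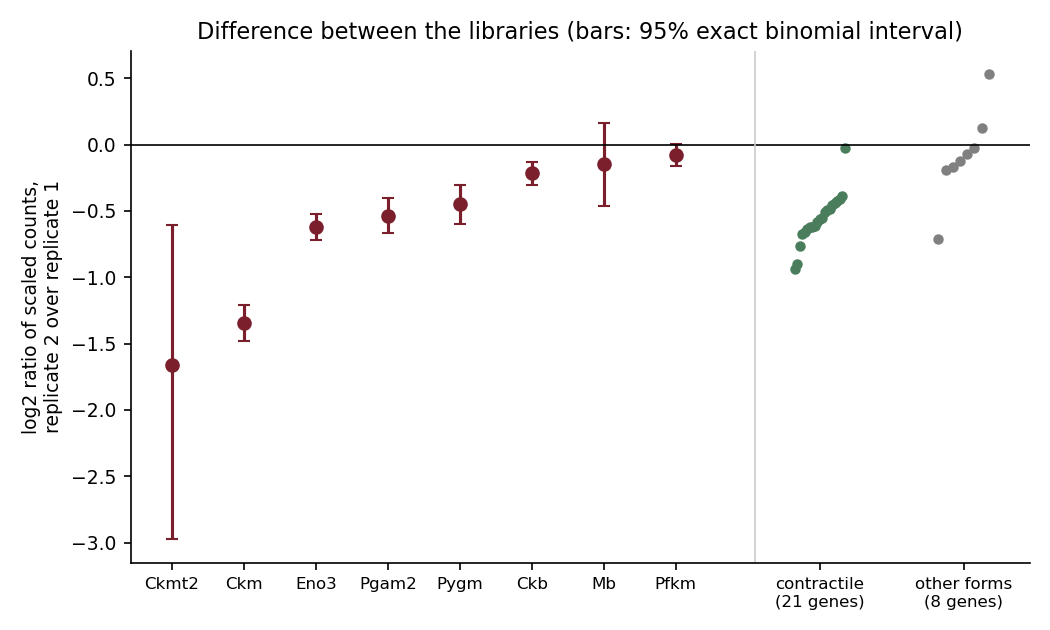
Log2 ratio of TMM-scaled counts, replicate 2 over replicate 1, for the 8 genes with 95% exact binomial intervals, and as points without intervals for 21 contractile genes and the 8 other forms of the same enzymes. Ckm at −1.34 lies below every contractile gene, and the intervals of Mb and Pfkm include 0.

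Fewer calls remain when the spread of a typical gene between the libraries is counted as error. EdgeR's exact test with 1 dispersion for all genes, taken from the same libraries, called Ckm alone of the 8 (adjusted p = 3.58e-07), where 0.809% of all genes tested were called lower, 0.355% higher and 1.16% in either direction. The adjusted p of the others by that test ran from 0.115 for Ckmt2 and 0.134 for Eno3 to 1 for Ckb, Pfkm and Mb. By size alone, Ckm and Ckmt2 were past a 1.5-fold lower TPM, as were 5.64% of all genes tested, and none of the 8 was past a 1.5-fold higher TPM, as were 7.47% (13.1% in either direction). The median log2 TPM ratio of the 8 was −0.42, against 0.07 over all genes tested.

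Contractile and other muscle genes moved in the same direction as Ckm. Of 21 contractile genes, 20 were lower in replicate 2 by the exact binomial test and none was higher, with a median log2 TPM ratio of −0.49. Of all genes tested, 14.8% were called lower and 12.7% higher by that test. Acta1, the skeletal actin gene, was at 770.0 and 478 TPM. Actn3, the lowest of the list, was not called, at 9.43 and 10.4 TPM, and its sign turned with total or spike-in counts as the scaling. The summed TPM of the list was 5362 in replicate 1 and 3754 in replicate 2, a log2 difference of −0.51. By edgeR's exact test 3 of the 21 were called lower, against 0.809% of all genes tested.

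Set against that sum, the 8 genes divided. Ckm was 0.982% of the contractile sum in replicate 1 and 0.582% in replicate 2, a log2 difference of −0.75. The muscle genes Eno3, Pgam2 and Pygm kept close to the sum, with log2 differences of −0.07, 0.06 and 0.12. The differences of Pfkm, Mb and Ckb to it were positive, at 0.52, 0.46 and 0.38. Ckmt2 had a log2 difference of −1.13 to it, on 30 and 9 counts. These relative values have 1 library on each side and were not tested.

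Regulators of the muscle lineage were lower as well. Of 10, 9 were called lower by the exact binomial test and none higher, against 14.8% and 12.7% of all genes tested. With total or spike-in counts as the scaling 7 of the 10 were lower, which lost Mef2a and Mef2d, and edgeR's exact test called none. Myog, which drives muscle cells to differentiate, was at 115 and 90.5 TPM and Mymk, required for muscle cell fusion, at 54.3 and 36.7 TPM.

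The other forms of the same enzymes were called in both directions. Of 8 genes, 4 (Ckmt1, Eno1, Pgam1 and Pygl) were called lower in replicate 2 by the exact binomial test and 2 (Pygb and Eno2) higher. The shares over all genes tested were 14.8% lower and 12.7% higher. The lower calls of Pygl and Eno1 were lost with spike-in scaling, that of Pygl also with total counts, and edgeR's exact test called none of the 8. Ckmt1 had the largest negative ratio of log2 counts among them, −0.71, and Eno2 the largest positive one, 0.53. Their median log2 TPM ratio was −0.02.

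Genes of creatine supply and adenylate use included several lower calls. Gatm and Gamt, the enzymes of creatine synthesis, stood at 42.0 and 30.8 TPM and at 69.9 and 58.2 TPM, and the exact binomial test called both lower in replicate 2. The creatine transporter gene Slc6a8 was not called, at 9.19 and 9.68 TPM. The adenylate kinase gene Ak1 was at 42.4 and 33.7 TPM and Ampd1, the muscle AMP deaminase gene, at 6.40 and 3.32 TPM, and both were called lower. Of the 6 genes of this list 4 were lower and none higher by that test, against 14.8% and 12.7% of all genes tested. EdgeR's exact test called Ampd1 alone, as lower (adjusted p = 0.00539), against 0.809% of all genes tested.

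Muscle forms of respiratory chain subunits were among the lower calls. Cox6a2 and Cox8b, forms of cytochrome oxidase subunits found in striated muscle, stood at 56.6 and 32.1 TPM and at 24.8 and 13.1 TPM. Their log2 count ratios were −0.90 and −0.99. Cox7a1, another such form on the list, was not called, at 3.78 and 2.81 TPM from 23 and 16 counts. Fabp3, a fatty acid carrier of striated muscle, stood at 36.2 and 25.5 TPM. Of the 9 genes of this list, 6 were called lower and 1, Esrrg, higher by the exact binomial test (14.8% and 12.7% of all genes tested). Of these, the lower call of the nucleotide carrier gene Slc25a4 was lost with total counts and its sign turned with spike-in scaling. By edgeR's exact test Cox6a2 alone of the 9 was called, as lower (adjusted p = 0.00971), against 0.809% of all genes tested.

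Most genes of the shared steps of glycolysis and glycogen use had ratios near 0. Of 21 genes 20 were tested, and 9 were called lower and 2 higher in replicate 2 by the exact binomial test. The shares over all genes tested were 14.8% and 12.7%. The median log2 TPM ratio of the list was −0.03. Under total counts 7 were lower and 2 higher, and under spike-in scaling 7 were lower and 4 higher, with the sign of Pkm, Gys1 and Slc2a4 turned under both, and edgeR's exact test called none. Gapdh, the highest, stood at 1315 and 1281 TPM. The heart form of lactate dehydrogenase, Ldhb, was at 168 and 196 TPM and was one of the higher calls. The other lactate dehydrogenase gene of the list, Ldha, was at 1224 and 1121 TPM, and Aldoa at 580 and 505 TPM. Both were among the lower calls, with log2 count ratios of −0.21 and −0.27. Phkg1, the muscle catalytic subunit of phosphorylase kinase, which switches on the enzyme that Pygm encodes, had 2.01 expected counts in replicate 1 and 0 in replicate 2, and was not tested.

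A single transcript stood in the tables for 4 of the 8 genes, Ckm, Ckb, Ckmt2 and Pgam2, and the other 4 had 2 to 8. Pfkm was divided between a pair of coding transcripts whose starts lie 15877 bases apart on chromosome 15. The one from the upstream start (98092589, 2816 nt, 23 exons) held 53.0% of Pfkm TPM in replicate 1 and 60.3% in replicate 2, and the one from the downstream start (98108466, 2880 nt, 23 exons) held 47.0% and 39.7%. Their deposited intervals overlapped in each library, at 12.5 to 25.0 and 12.1 to 24.4 TPM in replicate 1, so the order of the pair was not resolved. The windows printed above belong to these starts, the first at the same base and the second 5 bases from the transcript start.

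Eno3 had 8 transcripts, of which a coding form of 1454 nt held 71.3% and 67.5% and one of 1564 nt held 20.3% and 24.7%. The starts of these forms differ by 2 bases, at 70657202 and 70657204. In Mb the form of 966 nt held 84.3% and 89.2% and the form of 1106 nt 15.7% and 10.8%, and the form of Mb that starts far upstream at 77050670 was listed at 0 in both. In Pygm the full-length form of 2874 nt held 72.3% and 74.8%, at 12.6 and 9.96 TPM. A short transcript of 532 nt that the annotation types as a retained intron held 24.9% and 23.7% from 43.3 and 29.3 expected counts. The level, ratio and family shares of Pygm given above include it.

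**Figure D4:**
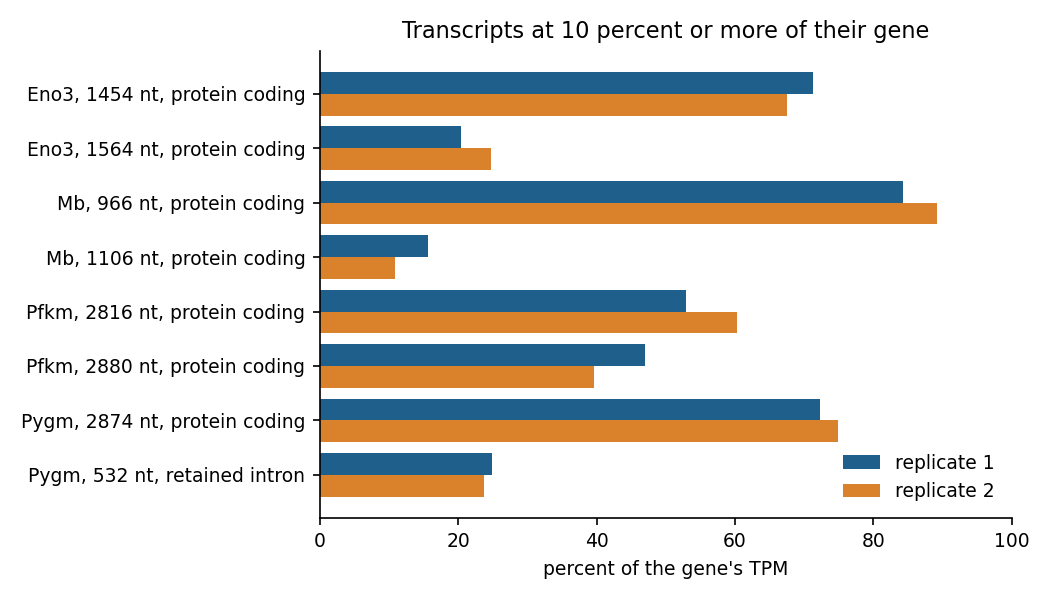
Percent of the TPM of the gene held by each transcript that reached 10% in either library, for the 4 genes with several transcripts, with a bar for each library. Pfkm is divided between 2 forms, while 1 form holds 67% or more of Eno3, Mb and Pygm in both libraries.

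Some marker genes of other limb cell types also had lower levels in replicate 2, and their part in the values above was not tested. The summed TPM of 7 red blood cell genes, led by Hba-a2, was 26941 in replicate 1 and 18275 in replicate 2. The exact binomial test called 6 of these 7 lower, against 14.8% of all genes tested. The corresponding sums were 274 and 211 TPM for smooth muscle (4 genes, led by Acta2), 1025 and 899 TPM for epidermis (3, led by Perp), 960 and 1006 TPM for cartilage (4, led by Col2a1), 153 and 150 TPM for macrophages (3, led by Fcer1g) and 75.8 and 76.6 TPM for endothelium (3, led by Pecam1). Acta2, at 251 and 189 TPM, and Perp, at 473 and 368 TPM, carried most of the smooth muscle and epidermis differences. Of the 4 smooth muscle genes, the exact binomial test called 2 lower, Acta2 and Myh11, against 14.8% of all genes tested. Tagln, at 20.5 and 19.0 TPM, and Cnn1, at 1.61 and 1.99 TPM, were not called. All 3 epidermal genes were called lower, Krt14 at 386 and 374 TPM and Krt5 at 165 and 157 TPM. EdgeR's exact test called none of either list. Heart muscle, which also expresses Ckm, Ckmt2, Mb and Cox6a2, was represented by 5 genes with a sum of 12.6 and 8.74 TPM. Of these Myl2 alone had a lower TPM in replicate 2, at 8.59 and 4.01 TPM, and was called lower by the exact binomial and edgeR tests. The other 4 had higher TPM there without being called, although the expected counts of Myh6 were lower, at 67.4 and 50.6. The atrial genes Nppa and Myl7 were under 1 TPM in both. Neuronal genes, of interest for Ckb and Eno2, summed to 12.7 and 12.3 TPM over 6 genes, led by Stmn2. That sum joins genes of differing direction. Stmn2 was at 6.96 and 5.62 TPM and was not called. Of the 5 tested, the exact binomial test called Syt1 higher in replicate 2, at 0.87 and 1.49 TPM, and none lower. The share called higher over all genes tested was 12.7%, and edgeR's exact test called none of the 5. The 4 listed genes of glia and liver, led by Apoa1, summed to 2 and 1.89 TPM.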

How the data were processed

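Total RNA sequencing of 2 limb libraries was available as gene and transcript tables on mm10 and GENCODE M4, per the labels and sample notes. The aligner, quantifier and strand setting were not given in the sources used here. Expected counts from the authors (estimated reads per feature) totalled 34193161 and 32879425 per library. The authors' TPM values are corrected for length, and 96 spike-ins share in their sum. Transcript shares are in percent of the gene, per the file headers.

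Symbols and positions came from GENCODE M21 by Ensembl identifier, with 42462 of 43346 matched. Promoter windows came from RefSeq (GRCm38.p6). Counts were rounded, spike-ins (5.29% and 5.20% of counts) and 26248 features with numeric identifiers were left out of tests and library sizes, and libraries were scaled by TMM (edgeR 4.0.16, R 4.3.3). The exact binomial test used scipy 1.17.1, a minimum of 10 summed counts and an adjusted threshold of 0.05. It was tested on simulated counts that held counting error alone. That setting has no other spread between libraries, so it cannot show how reliable the calls are in these libraries. EdgeR's exact test used a common dispersion of 0.00983 estimated from the same 2 libraries. Ratios and TPM differences used log2(TPM + 0.1), which understates changes of low genes. Intervals cover counting error only. Identity between transcripts came from local alignment (Biopython 1.88).

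The 8 members and the lists (6 pathway lists and 9 cell type lists) were chosen with earlier results of these data known. Genes to name were drawn from the 8 members, the other forms of their enzymes, the 3 highest and the lowest of each pathway list, 8 further genes of energy use, and the highest of each cell type list; not all are printed. Genes named for an unstable call, and Nppa, Myl7, Myh6, Cox7a1, Esrrg, Syt1, Myh11, Tagln, Cnn1, Krt14 and Krt5, were chosen after their values were seen. Alternatives covered pseudocounts, posterior mean TPM, DESeq2 1.42.0 size factors, total and spike-in scaling, count minimums, fold thresholds and each library alone.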

Additional observations from a re-analysis of the deposited data

How the results depend on the processing

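With 2 libraries, the values of each alone give the range of every ratio: −1.69 to −0.56 for Ckm over Ckb, −4.55 to −3.92 for Ckmt2 over Ckmt1, −2.53 to −1.95 for Pygm, −1.24 to −1.19 for Pfkm, −4.45 to −3.87 for Eno3 and −3.02 to −2.61 for Pgam2 over their other forms. None changed sign in any alternative run. With 1 TPM added the ratio of Ckmt2 over Ckmt1 was −3.04. The amount added exceeds both Ckmt2 values (0.940 and 0.300 TPM) and so makes the ratio less negative by arithmetic. With posterior mean TPM the ratio of Pfkm was −1.28. There Pfkp stood at 11.0 and 10.6 in place of 9.32 and 9.08, and Pfkm at 37.05 and 37.07 in place of 37.99 and 38.09. By edgeR's exact test the count of members lower in replicate 2 was 1 in place of 6, because the spread of a typical gene is counted as error there. The minimum of 50 counts left 5, since Ckmt2 was not tested. Past a fold threshold, 1 member was lower with 1 TPM added (1.51% of all genes tested were), 5 at the laxer threshold tried (11.5%), 2 at 2-fold (2.04%), and 3, Eno3 included, with TMM-scaled counts (6.62%). Posterior mean percentages of the leading transcript were 63.6% for Eno3, 78.7% for Mb and 68.1% for Pygm, in place of 69.4%, 86.8% and 73.6%; the cause was not tested. The 42 other values recomputed with both libraries stayed within the spread or count limit of the reported one; the values of single libraries cannot fall outside that spread with n = 2 and say nothing of stability. No paired analysis was possible because there is 1 group, and leaving out a library leaves no difference between libraries to test. Depth limits Ckmt2 most, at 30 and 9 counts.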
